A study of Homo sapiens with 8 samples.

Results

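The zinc finger neosubstrates of CRBN are 10 genes whose protein products have been reported to be degraded through CRBN when a thalidomide analogue is bound. ZFP91, IKZF1, IKZF3, SALL4, RNF166, ZNF692, ZNF276, ZNF653, ZNF827 and WIZ were taken by symbol from the 23459 genes of the count table, and all 10 had a row. Their RNA was measured in Hct116, an established human colorectal carcinoma line, in 4 libraries treated for 16 h with lenalidomide at 30 μM and 4 that received a matching amount of its solvent, DMSO. Total RNA was made into libraries with a ScriptSeq kit, and the same cultures served for protein labelling. The labels name no edited gene or transgene, and lenalidomide was the one agent that set the groups apart. The study's methods call the 4 replicates of the protein labelling experiment technical, and the legend of the RNA data calls its replicates biological. The p-values therefore measure the spread between these libraries, which may be technical. The comparison asks which of these genes are transcribed in the line and whether their RNA moves when the drug is added.

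CRBN is the substrate receptor of the CRL4 ubiquitin ligase, in which DDB1 holds the receptor on a CUL4 scaffold and RBX1 recruits the ubiquitin-charged E2 enzyme. Thalidomide, lenalidomide and pomalidomide fill a pocket of CRBN and create a surface that captures proteins the receptor otherwise does not bind, which are called neosubstrates. Most are C2H2 zinc finger proteins, recognised through a hairpin of 1 finger with a glycine directly after the second cysteine. The step acts on protein, and an RNA count does not measure it.

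Every one of the 10 genes encoded at least 1 C2H2 finger with that glycine in its canonical GENCODE transcript. Such a finger was found in 647 of 19502 protein-coding genes (3.32%) and in 81.6% of the genes with any C2H2 finger, so that it is common among zinc finger genes. WIZ held 8 among 11 fingers, IKZF1 and SALL4 held 4 each, and RNF166 had a single finger. The coding sequences below are shown because ZNF692, ZNF653 and ZNF276 each encode a finger much like that of ZFP91, while IKZF1, IKZF3 and SALL4 do not. Each runs 5′ to 3′ on the coding strand from 2 codons before the first cysteine, with capitals for the codons of both cysteines and the glycine.
ZFP91: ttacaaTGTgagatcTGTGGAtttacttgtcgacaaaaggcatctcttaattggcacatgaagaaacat
ZNF692: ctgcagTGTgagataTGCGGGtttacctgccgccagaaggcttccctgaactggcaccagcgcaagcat
ZNF653: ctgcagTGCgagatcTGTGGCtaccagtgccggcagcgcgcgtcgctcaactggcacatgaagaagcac
ZNF276: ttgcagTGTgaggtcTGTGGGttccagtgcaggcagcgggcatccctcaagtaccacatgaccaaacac
IKZF1: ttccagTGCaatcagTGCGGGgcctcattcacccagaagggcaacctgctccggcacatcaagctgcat
IKZF3: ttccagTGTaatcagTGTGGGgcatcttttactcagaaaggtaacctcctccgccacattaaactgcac
SALL4: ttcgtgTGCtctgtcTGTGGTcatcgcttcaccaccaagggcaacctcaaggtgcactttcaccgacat
The ZFP91 finger (residues 402 to 422, chr11:58384284-58384732 on GRCh37, plus strand) is split by an intron, as are those of ZNF692 (chr1:249144652-249144885, minus strand), ZNF653 (chr19:11594611-11594861, minus strand) and ZNF276 (chr16:89804309-89804447, plus strand). The fingers of IKZF1 (chr7:50450249-50450317, plus strand), IKZF3 (chr17:37947757-37947825, minus strand) and SALL4 (chr20:50407726-50407794, minus strand) each lie in 1 exon. Over the 17 residues from the first cysteine to the first histidine, ZNF692 encoded the same residues as ZFP91 at all 17, although 40 of the 51 bases were the same. ZNF653 shared 14 of the 17 residues and ZNF276 shared 12. The IKZF1 and IKZF3 fingers shared 7 each with ZFP91, and the SALL4 finger, shown because its binding by CRBN has been reported, shared 6. Another 2 SALL4 fingers with the glycine shared 7. No finger with the glycine in RNF166, ZNF827 or WIZ shared more than 6.

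The libraries held 28218471 to 37473413 counts, and each lenalidomide library was smaller than each DMSO library. edgeR's filter on low counts kept 13925 genes. Among libraries of one treatment, lenalidomide libraries 1 and 4 stood apart from 2 and 3 in the nuclear RNAs given below. Both were above 2 and 3 in 22% of the genes tested, a share that was not set against other splits of these libraries. In the study 2 of the 4 replicates per treatment were cultures with the isotopes exchanged, and the sample records do not say which libraries these are, so the part of that exchange in this split was not tested. Libraries 1 and 4 had 76.9 and 124 CPM (a gene's counts scaled to the usual common library size, after correction by TMM factors) of the nuclear long noncoding RNA NEAT1 against 24.9 and 37.5, and 2469 and 2921 CPM of MALAT1 against 1487 and 1777. These RNAs were chosen after their values were seen. DMSO libraries 2 and 4 were likewise above 1 and 3, with 55.0 and 60.7 CPM of NEAT1 against 25.2 and 31.1. For MALAT1 they had 1928 and 1972 CPM against 1703 and 1784. Of the markers of the tissue of origin, 6 of 7 colon epithelial genes were tested, with a summed level of 3598 to 4018 TPM (counts per exonic base, scaled to the same sum in every library) in DMSO and 3625 to 3862 TPM in lenalidomide. KRT19 was the highest at 1585 TPM in DMSO and VIL1 was near 0.

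The members covered a wide range of RNA levels. On the length-scaled TPM scale, which permits levels of different genes to be set side by side, ZFP91 was the highest in DMSO with 162 ± 11.1 TPM (SD, n = 4), at percentile 95.1 of all genes in the table. It was followed by RNF166 with 18.1 ± 1.81 TPM, ZNF827 with 16.1 ± 1.91, ZNF692 with 11.6 ± 0.842, ZNF276 with 8.71 ± 0.0647, WIZ with 7.80 ± 0.335 and ZNF653 with 5.26 ± 0.398 TPM. SALL4 came next with 0.272 ± 0.0551 TPM, and IKZF3 and IKZF1 were last with 0.0453 ± 0.00959 and 0.0119 ± 0.0118 TPM. ZFP91 lay 8.94-fold above RNF166, and ZNF653 lay 19.4-fold above SALL4. RNF166 and ZNF827 were the only neighbours in this order whose DMSO libraries overlapped, at 16.2 to 19.7 and 14.7 to 18.8 TPM.

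**Figure D1:**
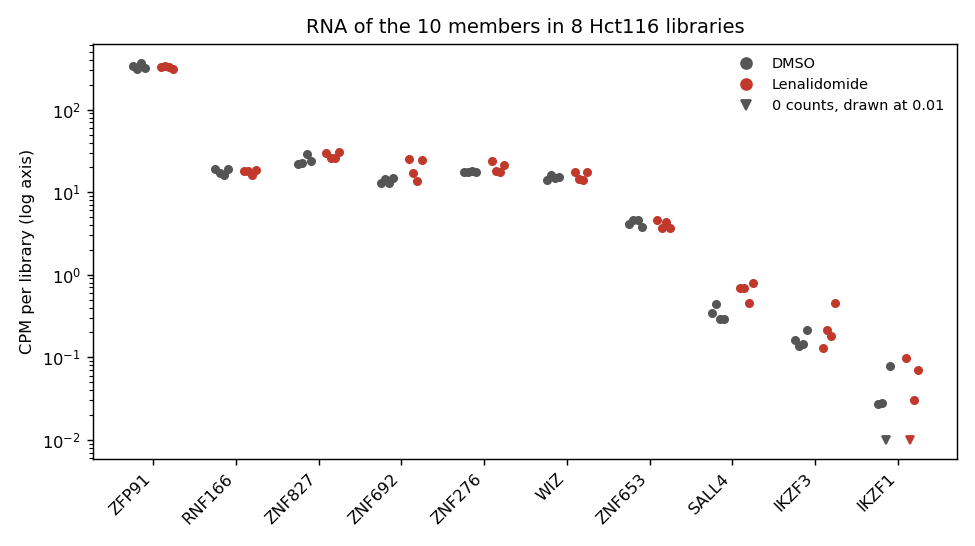
CPM (log axis) of the 10 members, ordered by TPM in DMSO, in each DMSO (grey) and lenalidomide (red) library, where each circle is 1 library and a triangle marks a library with 0 counts. ZFP91 lies at 307 CPM or more in every library, 6 members lie between 3.67 and 31.0 CPM, and SALL4, IKZF3 and IKZF1 lie below 1 CPM.

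Ikaros (IKZF1) and Aiolos (IKZF3) are transcription factors of lymphoid cells and the neosubstrates through which lenalidomide acts on multiple myeloma. In these colorectal cells their RNA was at or near the limit of detection. IKZF1 had 1, 1, 0 and 3 counts in DMSO libraries 1 to 4 and 3, 0, 1 and 2 counts in lenalidomide libraries 1 to 4. The 5 counts in DMSO gave 0.0343 CPM before TMM scaling (exact Poisson 95% interval 0.0111 to 0.0800) and the 6 in lenalidomide gave 0.0477 (0.0175 to 0.104). A library with 0 counts allowed up to 0.0851 CPM in DMSO and 0.0893 in lenalidomide, taking 3 counts as the floor. These intervals and floors cover counting error only. IKZF3 had 6, 5, 5 and 8 counts in DMSO and 4, 7, 6 and 13 in lenalidomide, or 0.165 CPM (0.106 to 0.245) and 0.238 CPM (0.161 to 0.340) on the same scale. IKZF1 lies at chr7:50343664-50472799 on the plus strand and IKZF3 at chr17:37913971-38020565 on the minus strand of GRCh37. Both genes were below the count filter, and no difference was detectable at this depth (two-sided exact permutation tests of log2 CPM, p = 0.714 for IKZF1 and 0.371 for IKZF3). Of the 11 lymphoid and plasma cell markers none was tested, TNFRSF17 was at 0 in every library, and the highest, CD79B, reached a mean of 0.216 TPM. PTPRC, the common leukocyte antigen, had 2, 1, 1 and 0 counts in DMSO libraries 1 to 4 and 4, 6, 3 and 6 in lenalidomide, which did not overlap. It was singled out after its values were seen and was too low for a test. Their summed level was 0.229 to 0.877 TPM in DMSO and 0.350 to 1.37 TPM in lenalidomide. Counts from bulk RNA cannot tell a few cells with much RNA of a gene from many cells with little.

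None of the 8 members tested passed the threshold of 0.05 for a change with lenalidomide when the quasi-likelihood test of edgeR was adjusted over all 13925 genes by Benjamini and Hochberg's method (adjusted p = 0.999 for each). Few genes did at all, with 2 called (0.0144%), neither of them a member or a gene of the lists described here. At an unadjusted p under 0.05, 4 of the 8 members were higher with lenalidomide (SALL4, ZNF692, ZNF827 and ZNF276) and 0 were lower, where 3.26% of all genes were higher at that level. SALL4 lay near the count filter, which its DMSO libraries alone did not meet. Its place in this count is therefore a description and no support. The count fell to 2, SALL4 and ZNF692, when DMSO library 1, 2 or 4 or lenalidomide library 1 or 4 was left out. It was 3 without DMSO library 3 and 2 with the NEAT1 level as a covariate. It fell to 1, SALL4, without both lenalidomide libraries 1 and 4, which stood apart in NEAT1 and MALAT1. ZNF692, ZNF827 and ZNF276 were highest in those 2 libraries, so the choice of libraries set that last fall. The median log2 fold change was 0.13 over the 8 members and 0.0025 over all genes tested. The first median includes SALL4 despite that limit, so the 2 medians are only a description. The 95% intervals of WIZ, RNF166, ZFP91 and ZNF653 held 0.

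**Figure D2:**
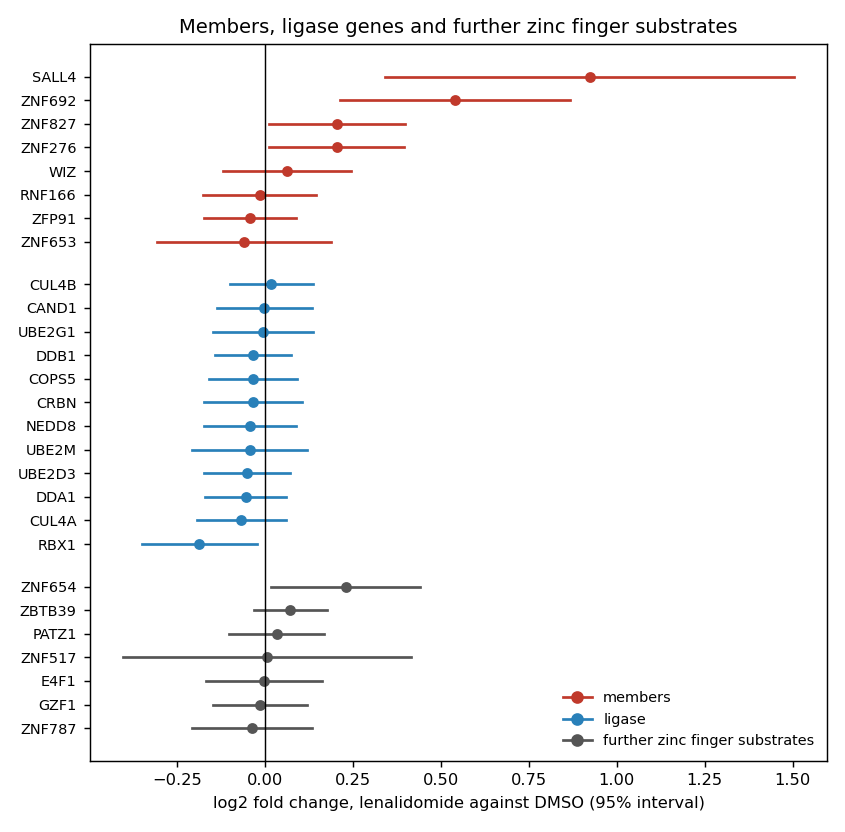
Log2 fold change of lenalidomide against DMSO (points) with 95% intervals (lines) for the 8 tested members (red), the 12 ligase genes (blue) and the 7 tested further zinc finger substrates (grey). SALL4 lay near the count filter, which its DMSO libraries alone did not meet. The intervals of SALL4, ZNF692, ZNF827, ZNF276 and ZNF654 lie above 0, that of RBX1 lies below 0, and none of these genes passed the adjusted threshold.

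ZFP91, a nuclear zinc finger protein also described as a ubiquitin ligase in NF-kB signalling, had the smallest standard error of the fold change in the set. Its levels were 341, 314, 369.6 and 322 CPM in DMSO libraries 1 to 4 and 333, 336, 329.6 and 307 CPM in lenalidomide libraries 1 to 4. The lenalidomide values lay within the DMSO range in 3 libraries and just under it in library 4. The log2 fold change was -0.04 ± 0.061 (SE, n = 4 and 4), a ratio of 0.970 with a 95% interval of 0.886 to 1.06 (p = 0.489 unadjusted by edgeR; exact permutation p = 0.571). ZFP91 lies at chr11:58346536-58389023 (GRCh37, plus strand), and the readthrough gene ZFP91-CNTF shares 1685 exonic bases with it on the same strand. The readthrough row held 44 to 50.25% as many counts as ZFP91 in each library. Shared reads may count in both rows, so the readthrough row may not be a separate reading. It was at 159 ± 20.7 CPM in DMSO and 151 ± 11.1 CPM in lenalidomide (log2 fold change -0.07, 95% interval -0.25 to 0.11).

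SALL4, a stem cell transcription factor whose degradation has been linked to the limb defects caused by thalidomide, was the member with the largest fold change and few counts. It had 13, 16, 10 and 11 counts in DMSO libraries 1 to 4 and 21, 23, 15 and 23 in lenalidomide libraries 1 to 4, or 50 against 82 in all. On the CPM scale these were 0.348, 0.441, 0.292 and 0.290 against 0.681, 0.694, 0.456 and 0.797. The lowest lenalidomide library, number 3, was above the highest DMSO library, number 2, so the groups did not overlap. No other member had this pattern, which 1.24% of all tested genes showed with lenalidomide higher. The fitted fold was 1.90 (log2 0.92 ± 0.27, adjusted p = 0.999 by edgeR). The filter asks for 4 libraries, whatever their group, at or above 0.290 CPM before TMM scaling. This was reached by 3 DMSO and 4 lenalidomide libraries. The DMSO libraries alone would not have met it, although every library held at least 10 counts of SALL4. With the filter met only by counting lenalidomide libraries, its fold and the lack of overlap are a description and no evidence of a change. In level it stood at percentile 2.16 of the genes tested. Of 6 markers of pluripotent and germ cells, where SALL4 is normally used, LIN28B, the highest, alone was tested (log2 fold change -0.08, 95% interval -0.75 to 0.59). POU5F1 was the lowest at 0.00776 TPM, with 11 counts over an exonic width of 15968 bases. NANOG had 3 counts over 2098 bases, so that rank rests on the width. The summed level of the 6 markers was 0.182 to 0.467 TPM in DMSO and 0.300 to 0.615 TPM in lenalidomide. SALL4 lies at chr20:50398870-50419060 on the minus strand.

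ZNF692, ZNF276 and ZNF653 are the members whose finger printed above is most like that of ZFP91. ZNF692, a transcription factor that binds an AICAR response element, had 13.0, 14.6, 13.0 and 14.7 CPM in DMSO libraries 1 to 4 and 24.9, 17.2, 13.7 and 24.7 CPM in lenalidomide libraries 1 to 4. Libraries 1 and 4 of lenalidomide were far above all DMSO libraries, library 2 was slightly above them, and library 3 lay among them. The fold was 1.45 with a 95% interval of 1.16 to 1.82 (log2 0.54 ± 0.15, unadjusted p = 0.00329, adjusted p = 0.999 by edgeR; exact permutation p = 0.0857). Its variation between replicates was 14.7%, against a median of 7.41% over all genes tested. The gene lies at chr1:249144205-249153343 on the minus strand.

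ZNF276 is a zinc finger gene at chr16:89786808-89807333 on the plus strand. It had 17.5, 17.7, 17.9 and 17.6 CPM in DMSO and 24.0, 18.1, 17.7 and 21.6 CPM in lenalidomide libraries 1 to 4. The DMSO libraries were nearly equal, lenalidomide libraries 2 and 3 were close to them, and libraries 1 and 4 were higher. The fold was 1.15 with a 95% interval of 1.01 to 1.31 (unadjusted p = 0.0390, adjusted p = 0.999 by edgeR; exact permutation p = 0.0571). Its exons overlap 2409 exonic bases of the Fanconi anaemia gene FANCA on the opposite strand. The study states no strand setting for counting beyond default parameters, so reads of the 2 genes may not be told apart. FANCA was at 59.7, 66.4, 59.3 and 68.5 CPM in DMSO and 70.7, 56.8, 63.0 and 76.9 CPM in lenalidomide, where libraries 1 and 4 were again the highest.

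ZNF653, described as a transcriptional repressor, had 4.12, 4.55, 4.62 and 3.80 CPM in DMSO and 4.57, 3.71, 4.41 and 3.67 CPM in lenalidomide. The groups overlapped over nearly their whole range. Its log2 fold change was -0.06 with a 95% interval of -0.31 to 0.19, the widest of the 4 members whose interval held 0. The gene lies at chr19:11594242-11616654 on the minus strand and shares 471 exonic bases with an unnamed protein-coding locus on the same strand, so its count is uncertain to that extent.

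ZNF827, which recruits the NuRD chromatin remodelling complex to telomeres, had 22.1, 22.5, 29.1 and 24.1 CPM in DMSO and 29.6, 26.0, 26.1 and 31.0 CPM in lenalidomide. DMSO library 3 lay among the lenalidomide libraries, and the other DMSO libraries lay below all of them. The fold was 1.15 with a 95% interval of 1.01 to 1.32 (unadjusted p = 0.0397, adjusted p = 0.999 by edgeR; exact permutation p = 0.114). WIZ, a partner of the histone methyltransferases EHMT1 and EHMT2, had 14.2, 16.0, 15.01 and 15.3 CPM in DMSO and 17.3, 14.4, 14.0 and 17.5 CPM in lenalidomide. Lenalidomide libraries 1 and 4 lay above the DMSO values, library 2 among them and library 3 just below. The log2 fold change was 0.06 with a 95% interval of -0.12 to 0.25. RNF166, a RING ubiquitin ligase and thus an enzyme of the same general kind as the complex that degrades it, had 19.0, 16.9, 16.2 and 19.2 CPM in DMSO and 18.0, 17.8, 16.2 and 18.5 CPM in lenalidomide. Its lenalidomide values all lay within the DMSO range apart from library 3, which was level with the lowest, and the log2 fold change was -0.02 with a 95% interval of -0.18 to 0.15. ZNF827 lies at chr4:146678779-146859975, WIZ at chr19:15530789-15560767 and RNF166 at chr16:88762907-88772816, all on the minus strand. Noncoding RNA genes on the opposite strand overlap exons of ZFP91 by 186 bases, of IKZF1 by 110, of RNF166 by 212 and of WIZ by 61, so a small part of these counts cannot be assigned with certainty.

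The higher values of ZNF692, ZNF276, ZNF827 and WIZ fell on the same libraries. In each of these 4 of the 8 tested members, lenalidomide libraries 1 and 4 were above all the other 6 libraries, a pattern held by 9.13% of the genes tested. NEAT1 and MALAT1 were also highest in these libraries, and their part in the members' values was not tested beyond the following fits, which were chosen after the data were seen. Since these members were highest in libraries 1 and 4, leaving both out had to lower their values, and the following are a description. Without lenalidomide libraries 1 and 4, the log2 fold change was 0.16 for ZNF692 (edgeR, unadjusted p = 0.151, adjusted p = 0.9999), 0.02 for ZNF276 and 0.09 for ZNF827, and that of WIZ turned to -0.09. For SALL4, with the same limit on its selection, it was 0.74. With the NEAT1 level as a covariate and all 8 libraries kept, the value was 0.39 for ZNF692 (edgeR, unadjusted p = 0.00329). In that fit it was 0.14 for ZNF276, 0.17 for ZNF827, 3.6e-06 for WIZ and 0.86 for SALL4. No member had an adjusted p under 0.05 in either fit. Leaving out 1 library at a time kept ZNF692 between 0.42 and 0.69, with an unadjusted p under 0.05 in all 8 fits. ZNF276 met that level in 2 of the 8 fits and ZNF827 in 3.

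**Figure D3:**
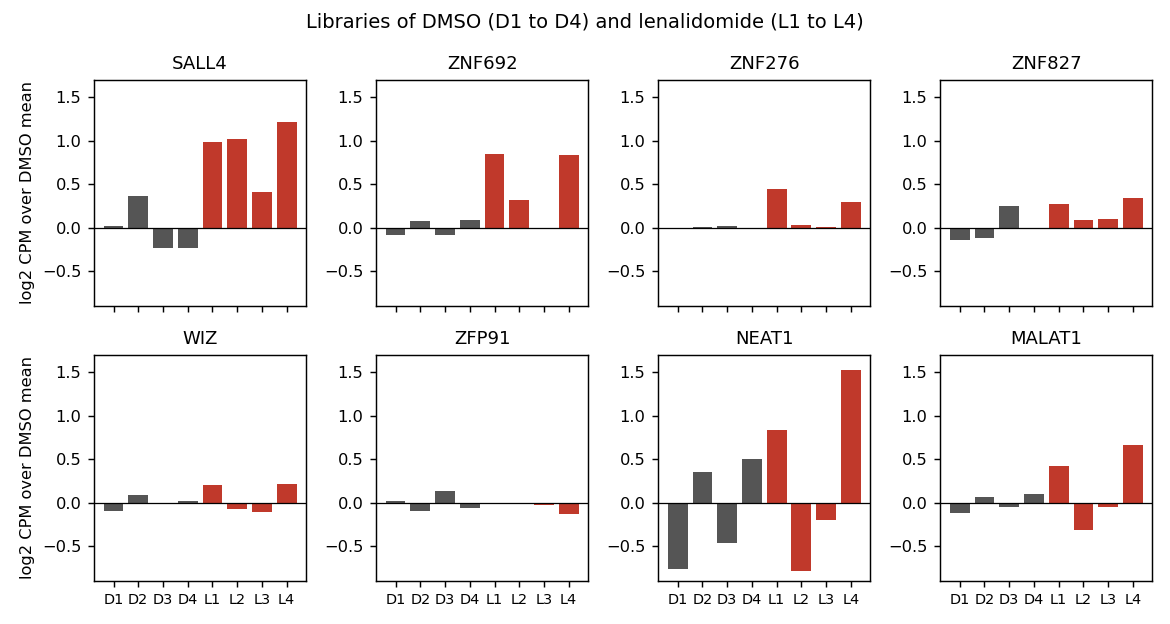
Log2 of CPM over the DMSO mean in each DMSO (D1 to D4, grey) and lenalidomide (L1 to L4, red) library for 6 members and for NEAT1 and MALAT1, on 1 common axis. Bars L1 and L4 are the tallest for ZNF692, ZNF276, ZNF827, WIZ, NEAT1 and MALAT1, while all 4 lenalidomide bars are raised for SALL4 and none stands out upward for ZFP91.

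**Figure D4:**
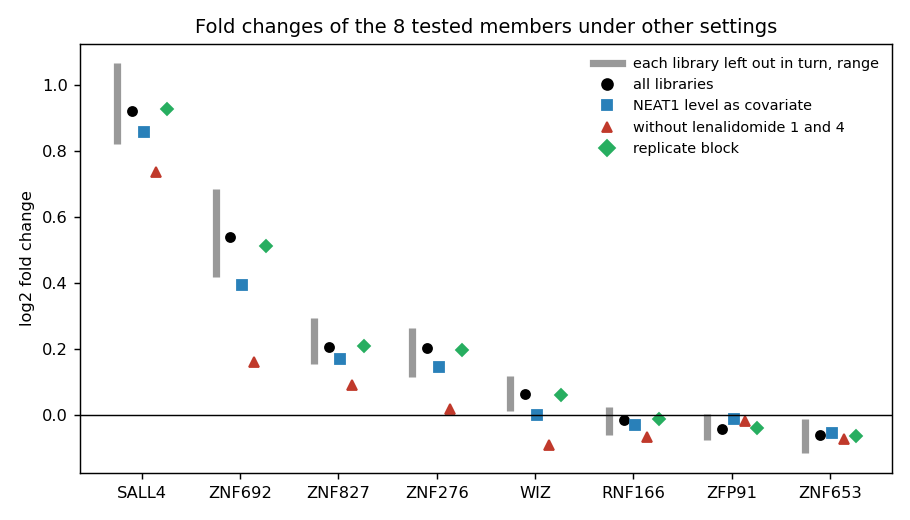
Log2 fold change of the 8 tested members with all libraries (black circles), with the NEAT1 level as covariate (blue squares), without lenalidomide libraries 1 and 4 (red triangles) and with a replicate block (green diamonds), beside the range over fits that leave out each library in turn (grey bars). ZNF692 is at 0.54 with all libraries and at 0.16 without the 2 in which it is highest, a fall that the choice of libraries sets, while ZFP91 stays near 0 throughout.

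All 12 genes of the ligase and of its activation were expressed and tested. CRBN had 25.6 ± 1.82 CPM in DMSO and 24.96 ± 0.94 CPM with the drug (SD, n = 4 each), and the 95% interval of its log2 fold change of -0.04 was -0.17 to 0.10. The values were -0.03 for the adaptor DDB1 and -0.07 and 0.02 for the scaffolds CUL4A and CUL4B. RBX1, the RING subunit, had 22.3, 24.4, 20.5 and 25.5 CPM in DMSO and 21.2, 19.7, 21.5 and 19.1 CPM in lenalidomide, and its groups overlapped. Its log2 fold change was -0.19 (95% interval -0.35 to -0.02, unadjusted p = 0.0275, adjusted p = 0.999 by edgeR), and it was the only gene of 12 in the ligase list with an unadjusted p under 0.05. No gene of that list was called in either direction, and their median was -0.04. By level the list ran from DDA1 at 26.2 TPM to the E2 enzyme UBE2D3 at 351 TPM, as means over all 8 libraries.

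Of 10 further zinc finger proteins named as substrates of these drugs, 7 were tested and 0 were called, with a median log2 fold change of 0.0051. E4F1 was the highest at 23.0 TPM and ZNF98 the lowest at 0.00553 TPM. ZNF654 had 11.6, 12.5, 11.04 and 12.9 CPM in DMSO and 11.9, 12.8, 15.4 and 16.1 CPM in lenalidomide, with libraries 3 and 4 raised. Its log2 fold change was 0.23 (95% interval 0.02 to 0.44, unadjusted p = 0.0357, adjusted p = 0.999 by edgeR). No other gene of that list had an unadjusted edgeR p under 0.05. ZBTB39 had all 4 lenalidomide values above all 4 DMSO values, a pattern that 1.24% of the genes tested showed. Its log2 fold change was 0.07 (95% interval -0.03 to 0.18; exact permutation p = 0.0286, the smallest possible here). The 5 substrates without such a finger were all tested, from FAM83F at 13.95 TPM to the kinase CSNK1A1 at 367 TPM, and their median was 0.0026 with none at an unadjusted p under 0.05.

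Relatives of IKZF1 and IKZF3 passed the count filter that these 2 genes did not, whereas those of SALL4 did not pass it. Of 9 paralogues 6 were tested, IKZF2, IKZF4 and IKZF5 among them, with log2 fold changes of 0.18, 0.12 and 0.13 and intervals that held 0 in each. SALL1, SALL2 and SALL3 were below the filter, SALL3 the lowest of the list at 0.00225 TPM, and RNF114 was the highest at 66.8 TPM. All 15 genes for binding partners of the members were tested, from MAP3K14, a kinase of the non-canonical NF-kB pathway, at 5.78 TPM to the NuRD helicase CHD4 at 385 TPM. Neither list had a gene called or with an unadjusted p under 0.05, and their medians were 0.07 for the paralogues and 0.01 for the partners. The WIZ partners EHMT1 and EHMT2 had log2 fold changes of 0.01 and 0.04.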

How the data were processed

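RNA-seq of 8 Hct116 libraries was analysed. The authors prepared total RNA libraries, aligned the reads to hg19 with QuasR, default parameters and spliced alignment, and deposited raw read counts per gene on UCSC known genes, with exonic widths and no normalization. The submitters' processing notes also name bcl2fastq 2.17. Rows without a symbol (70, 0.0223% of the counts) have identifiers and were kept. Each column of counts matched 1 sample.

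Counts were tested in R 4.3.3 with edgeR 4.0.16 (filterByExpr with a minimum count of 10 and total of 15, TMM, glmQLFit and glmQLFTest, Benjamini-Hochberg threshold 0.05) on all 8 libraries without covariates. limma 3.58.1 and DESeq2 1.42.0 were also loaded, DESeq2 for an alternative. The script was tested on simulated data. Standard errors were derived from each gene's F statistic, and intervals are at 95%. Exact permutation tests are two-sided, unadjusted and used log2(CPM + 0.01). TPM was computed from the deposited counts and exonic widths. PCR duplicates could not be told from independent molecules.

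The members and lists were chosen with earlier results of these data known. Named genes are all members, ZFP91-CNTF, the core ligase genes CRBN, DDB1, CUL4A, CUL4B and RBX1, and from each list any gene called or with an unadjusted edgeR p under 0.05 and its highest and lowest gene. IKZF2, IKZF4, IKZF5, SALL1, SALL2, EHMT1, EHMT2, PTPRC, NANOG, ZBTB39, FANCA, NEAT1 and MALAT1 are named beyond that rule, after their values were seen.

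Positions, overlaps and coding sequence come from GENCODE (lifted to GRCh37, the same assembly as hg19). A C2H2 finger was read as the usual spacing of 2 cysteines and 2 histidines in the translated coding sequence. No amino acid table was used here.

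Alternatives were DESeq2, RLE scaling, edgeR's likelihood ratio test, no filter beyond 1 count, 10 counts in every library, a threshold of 0.1, a replicate block and leaving out each library. Leaving out lenalidomide libraries 1 and 4, and the NEAT1 covariate, were added after the data were examined.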

Additional observations from a re-analysis of the deposited data

How the results depend on the processing

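No member passed the adjusted threshold under any alternative run, including a threshold of 0.1, and the smallest adjusted p of a member was 0.157, for ZNF692 with the replicate block in edgeR's quasi-likelihood test. The count of all genes called was 2 and became 12 with the likelihood ratio test, 9 with DESeq2, 6 with the replicate block and 4 where 1 count was enough for a gene to enter, and it ran from 1 to 2 when each library was left out, with 1 in every case but the removal of lenalidomide 4. It was 3 without lenalidomide libraries 1 and 4 and 2 with the NEAT1 covariate. The cause was not tested. The replicate numbers were not taken to pair the libraries, since deviations of the same-numbered libraries correlated at 0.052, -0.0076, 0.0033 and 0.31, against -0.34 to 0.18 for other pairs, and 3 of 8 libraries correlated best with the library of their own number.

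Of 120 alternative fold changes of the members, 115 kept their direction and side of the adjusted threshold and 5 reversed. RNF166 ran from -0.061 to 0.023 when each library was left out, with 0.013 without DMSO 1, 0.022 without DMSO 4 and 0.023 without lenalidomide 3. ZFP91 ran from -0.075 to 0.00057, and WIZ was at -0.092 without lenalidomide libraries 1 and 4. All of these had intervals that held 0 in the full comparison.

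The count of genes with an unadjusted p under 0.05 was 582 and moved to 306 without lenalidomide 4, 359 without DMSO 1 and 1042 without lenalidomide 2. Over all genes tested, the median half-width of a 95% interval was 0.17 on the log2 scale, before any adjustment for the number of genes. For SALL4, with 132 counts in all, the interval was far wider, and IKZF1 and IKZF3 had too few counts for a test. The number of members with enough counts was 8 with edgeR's filter and also when each library had to hold 10 counts, 9 when each had to hold 1 count, and 7 at a mean of 1 CPM.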
